A study of Saccharomyces cerevisiae with 3 samples.

Results

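The 10 ADE genes of budding yeast (Saccharomyces cerevisiae) encode the enzymes that build AMP from phosphoribosyl pyrophosphate, and they were found among the 6174 genes of the deposited table by their locus tags. A value was present for 9 of the 10, on at least 2 of the 3 arrays, and ADE6 had none. Of all 6174 genes, 43.7% had a value on any array, and 1899 genes had values on at least 2. The set is one of named pathway enzymes, but it was picked with the ratios of these same arrays in view, so its values are given as a description and support no test of their own. Total RNA was compared on 2-colour arrays between cells given 15 ng/ml caspofungin for 2 hours and the rest of their culture, which stayed without the drug. Caspofungin is an echinocandin, which blocks synthesis of the wall polymer beta-1,3-glucan. Both parts were the WSC1extMID2cyt strain in the BY4741 background, grown in the rich medium YEPD at 24 °C. The label joins the names of the wall-stress sensor genes WSC1 and MID2, and whether the strain is a single clone is not stated. Treated RNA carried Cy3 on array 1 and Cy5 on arrays 2 and 4.

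Purine synthesis assembles the ring in 10 steps on a ribose phosphate to give IMP, from which separate branches lead to AMP and GMP. In yeast the transcription factors Bas1 and Pho2 activate most ADE genes together, and intermediates of the pathway promote that activation, while adenine in the medium lowers it. The same factors act on genes of one-carbon and histidine metabolism, since folate-bound one-carbon units enter the ring and the histidine pathway releases an intermediate of purine synthesis.

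Values are log ratios with the sign as deposited, and base 2 was assumed. Whether a positive value means higher or lower with caspofungin is not stated in the sources used here, so results are given as lying on the positive or negative side. For orientation, the wall genes NCW2 and SED1 lay on the positive side of all arrays, with mean log2 ratios of 1.88 ± 0.09 and 1.17 ± 0.10 (SD, n = 3 arrays). Array 1 held 2520 genes with a value, array 2 held 1924 and array 4 held 741, with medians of -0.20, -0.22 and 0.09. Across the 585 genes on all arrays, array 2 correlated with array 1 at Pearson's r = 0.50 and with array 4 at r = 0.53, while r was 0.05 for the remaining pair, as a description across genes that share these hybridisations. The design text describes 2 cultures on 4 arrays, so 2 of these 3 arrays share a culture. If those are arrays 1 and 2, an SD over them covers technical spread alone. Of 5 marker genes of MATa cells, the mating type of BY4741, 3 had a value, and the listed MATalpha genes had none. The MATa genes lay on the negative side of every array that measured them: BAR1 averaged -1.23 ± 0.39 (SD, n = 2 arrays), STE2 -0.79 ± 0.58 (SD, n = 3 arrays), and MFA2 had -1.23 on array 2 alone. They lay on the same side as the ADE genes described next, and their part in those values was not tested. HIS3 and LEU2, which BY4741 is known to lack in whole or part, had values on arrays 1 and 2. URA3 and MET17 (also called MET15), listed with them as BY4741 deletions, had no value on any array. A value was missing on all arrays for 3473 of the 6174 genes. In a bulk culture, fewer cells expressing a gene and less RNA of it per cell cannot be told apart.

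The ADE genes lay on the negative side. The median of the 9 gene means was -1.14, beside -0.19 for all 1899 genes with a value on at least 2 arrays. Of the 9, 8 were below 0 on every array that measured them, where 45.9% of those 1899 genes were. A mean at least 2-fold below 0 was found for 5 members and for 2.9% of the 1899 genes. On array 1 the 9 genes had a median log2 ratio of -0.74, from -2.48 to 0.38, and the other genes a median of -0.20. On array 2 their median was -1.58, from -2.97 to -0.58, against -0.22. Array 4 measured only ADE12 and ADE13, at -1.10 and -1.38, against a median of 0.09. Centring each array on its own median left the median of the 9 means at -1.03.

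**Figure D1:**
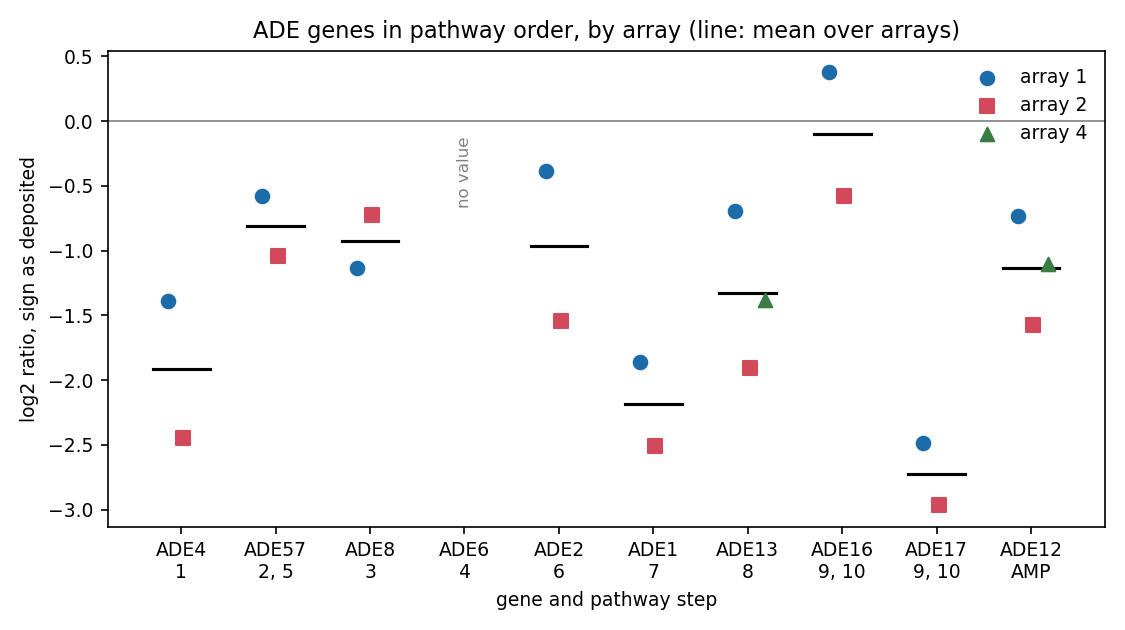
Log2 ratio (vertical axis, sign as deposited) of each ADE gene in pathway order (horizontal axis, with the step number), with 1 point per array and a line at the mean. ADE17, ADE1 and ADE4 reach furthest below 0, ADE16 lies on both sides of 0, and ADE6 has no value.

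The first committed step had one of the most negative ratios. ADE4 (YMR300C), the amidotransferase that commits phosphoribosyl pyrophosphate to purine synthesis and is inhibited by the pathway's end products, had -1.39 on array 1 and -2.44 on array 2. Both values lay in the lower tail of their arrays: 0.714% of genes lay lower on array 1 and 0.936% on array 2. The mean was -1.91 ± 0.75 (SD, n = 2 arrays), which is 3.77-fold if the base is 2.

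The next steps, which add glycine and the first formyl group and close the first ring, had smaller ratios. ADE57 (YGL234W), named ADE5,7 in yeast usage, encodes one protein that carries out steps 2 and 5. Its log2 ratio was -0.58 on array 1 and -1.04 on array 2, a mean of -0.81 ± 0.33 (SD, n = 2 arrays). ADE8 (YDR408C), the transformylase of step 3, had -1.14 on array 1 and -0.72 on array 2, a mean of -0.93 ± 0.29 (SD, n = 2 arrays). It was the only member whose array 1 value was the lower one. On array 1 only 1.35% of genes lay below ADE8, whereas on array 2 18.5% did. ADE6 (YGR061C), the synthetase of step 4, was not measured.

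The carboxylase of step 6 and the synthetase of step 7 differed. ADE2 (YOR128C), whose loss makes colonies red, had -0.38 on array 1, where 31.8% of genes lay lower, and -1.54 on array 2, where 2.44% did. Its mean was -0.96 ± 0.82 (SD, n = 2 arrays), the widest spread of the set, and array 1 alone placed it near the bulk of genes. ADE1 (YAR015W), which makes SAICAR from the ADE2 product, had -1.86 on array 1 and -2.51 on array 2. It was the 6th lowest of 2520 genes on array 1 and the 18th lowest of 1924 on array 2. The mean was -2.18 ± 0.46 (SD, n = 2 arrays), or 4.54-fold. ADE2 lay above ADE1 by 1.47 on array 1 and by 0.97 on array 2, on the log2 scale.

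ADE13 and ADE12, which share the conversion of IMP to AMP, were the only members with a value on all arrays. ADE13 (YLR359W), the lyase that acts at step 8 and again at the end of the AMP branch, had -0.69, -1.91 and -1.38 on arrays 1, 2 and 4. ADE12 (YNL220W), the adenylosuccinate synthetase that opens the branch, had -0.74, -1.58 and -1.10. Array 1 was nearest 0 and array 2 furthest from it for both genes. Their means were -1.33 ± 0.61 and -1.14 ± 0.42 (SD, n = 3 arrays). The difference ADE13 minus ADE12 came to 0.04, -0.33 and -0.28 on arrays 1, 2 and 4, so the genes did not keep one order. Both were below 0 on all arrays, where 29.1% of the 585 genes were. On array 4, whose ratios were the most widely spread (SD 0.95 across genes, against 0.55 and 0.73), 9.72% of genes lay below ADE13 and 13.1% below ADE12.

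The last steps to IMP are carried out by either of a pair of paralogous enzymes, and these stood at opposite ends of the set. ADE17 (YMR120C) had -2.48 on array 1 and -2.97 on array 2, the 2nd lowest and 12th lowest gene of those arrays. Its mean was -2.72 ± 0.34 (SD, n = 2 arrays), or 6.61-fold. ADE16 (YLR028C) had 0.38 on array 1 and -0.58 on array 2, a mean of -0.10 ± 0.67 (SD, n = 2 arrays), and the arrays differed in sign. After centring, the ADE16 mean was 0.11, on the other side of 0. The log2 difference ADE17 minus ADE16 was -2.86 on array 1 and -2.39 on array 2, larger than either gene's SD over arrays. Probe sequences were not used here, and the paralogues may share signal.

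The ADE16 and ADE17 genes also have paralogous neighbours, RPL15A and RPL15B, which encode the same ribosomal protein. RPL15A, next to ADE16, averaged -0.27 ± 0.34, and RPL15B, next to ADE17, averaged -0.14 ± 0.33 (SD, n = 3 arrays). On arrays 1, 2 and 4 RPL15A had -0.03, -0.12 and -0.66, and RPL15B had 0.13, -0.05 and -0.51. RPL15A was thus slightly lower on each array, though both means lay near each other. These paralogues may also share signal, so their likeness need not reflect each gene alone. In the gene order of RefSeq assembly R64 the 10 ADE genes have 20 flanking protein-coding genes, of which 5 had values on at least 2 arrays. Their means lay between -0.43, for the sterol gene ERG25 beside ADE6, and 0.01, for the aminotransferase gene AAT2 beside ADE16. A further 4 had a value on array 1 alone, of -0.08 (ATM1), -0.11 (SEC15), -0.28 (BUD14) and -0.23 (VPS38). None of the 5 neighbours on at least 2 arrays had a mean as far below 0 as ADE57, the ADE gene second nearest to 0. Array by array, neighbours and ADE genes overlapped: on array 1 ERG25 had -0.68, below ADE57 at -0.58. On array 2 ALG9, beside ADE12, had -0.78, below ADE8 at -0.72. The ADE genes were picked with these ratios in view, so nothing is read from the difference in means.

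Ordered by mean, the set ran ADE17, ADE1, ADE4, ADE13, ADE12, ADE2, ADE8, ADE57 and ADE16. Of the 8 gaps between neighbours in this order, 6 were within the larger SD of the pair. The exceptions were ADE17 below ADE1, by 0.54, and ADE57 below ADE16, by 0.71. Each SD also holds shifts between arrays that the genes share, so a gap within it does not mean that the arrays disagree on the order. ADE4, for example, lay below ADE13 on array 1 (-1.39 against -0.69) and on array 2 (-2.44 against -1.91). The means of ADE13 and ADE12 also cover array 4, which the others lack. ADE17, ADE1 and ADE4 were lowest in this order on arrays 1 and 2 alike, and ADE16 was highest on both. This order of means rests on the sign of array 1 as deposited: with that sign turned, ADE13 was lowest at -0.87, ADE17 was at -0.24 and ADE8 was highest at 0.21. The order did not follow the pathway: the lowest values were at steps 1 and 7 and in one of the enzymes of steps 9 and 10.

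**Figure D2:**
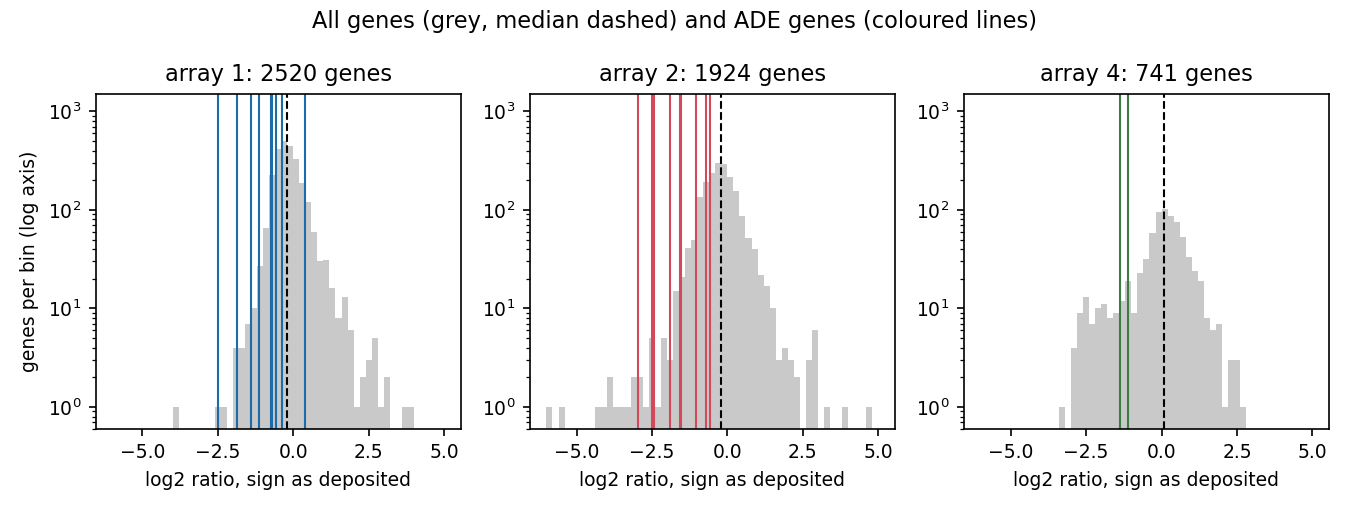
Number of genes per bin of log2 ratio on each array (log vertical axis, grey bars), with the array's median dashed and each ADE gene as a coloured line. On arrays 1 and 2 ADE17 lies in the lower tail, and on array 4 only ADE12 and ADE13 are present.

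Array 2 gave the lower ratio for 8 of the 9 members, while it did so for 57.1% of the 1863 genes on arrays 1 and 2. The median difference between array 2 and array 1 was -0.84 for the members and -0.09 for all genes. Ratios were also more widely spread on array 2 (SD 0.73 across genes) than on array 1 (SD 0.55). The part of that wider spread in the members' difference was not tested. Arrays 1 and 2 carried the treated RNA in opposite dyes. Both were below 0 for 8 of the 9 members, where 52.6% of the 1863 genes were.

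At least 2-fold below 0 on both arrays were 3 members, ADE17, ADE1 and ADE4, and 0.751% of all genes, which is 14 genes. At 1.5-fold there were 6 members and 5.58% of genes. The 14 genes also included 3 from a list of one-carbon and glycine genes (GCV1, MTD1 and SHM2) and 1 from the GMP branch list (IMD2). The remaining 7 were not matched to a listed gene, and among them was YAR073W, a row to which the reference table gives no gene name, at -1.07 on array 1 and -1.34 on array 2. Of these 7, the desaturase gene OLE1 was lowest, at -1.59 on array 1 and -2.26 on array 2. Uracil phosphoribosyltransferase, FUR1, which salvages a pyrimidine base, had -1.11 and -1.23. OLE1, FUR1, SHM2 and YAR073W were named after their values were seen.

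**Figure D3:**
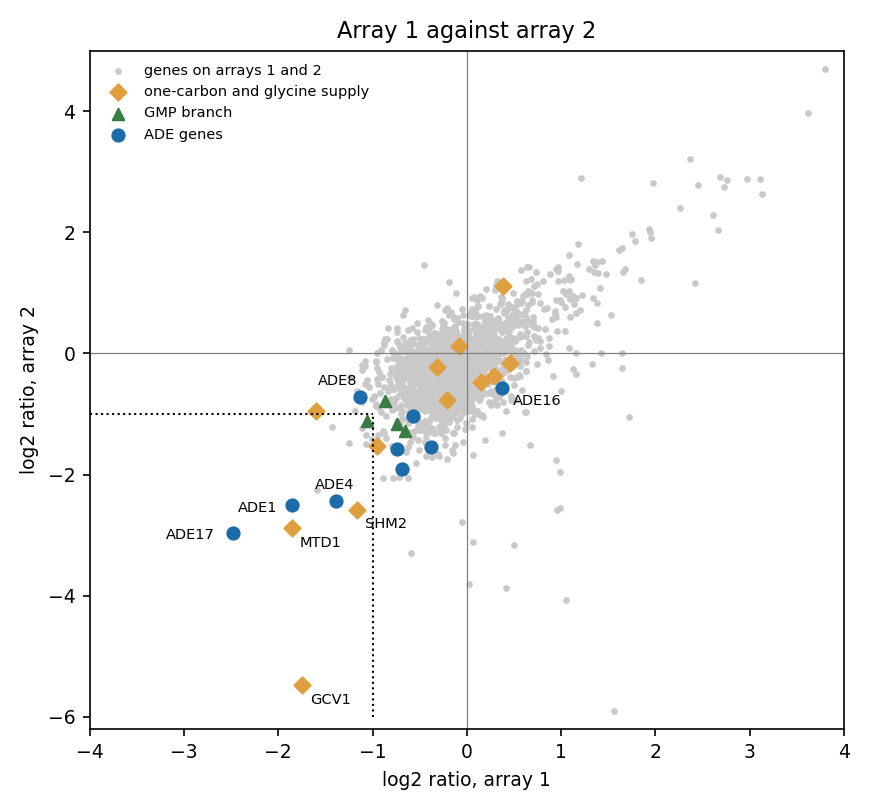
Log2 ratio on array 1 (horizontal axis) against array 2 (vertical axis) for the 1863 genes on both, with ADE genes, one-carbon and glycine genes and GMP branch genes marked. The dotted corner bounds ratios at least 2-fold below 0 on both arrays, which holds 14 genes, among them ADE17, ADE1 and ADE4.

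The limma test over all genes, which needs a value on every array, covered only ADE12 and ADE13. It called neither, and it called 0 of 585 genes (0%) at an adjusted p of 0.05, with 67 genes at an unadjusted p under 0.05. With arrays as separate replicates and genes on at least 2 arrays, limma called 5 of the 9 members, all on the negative side, where it called 14 of 1899 genes on that side (0.737%). That fit counts arrays that share a culture as independent. Since the members were picked on this comparison, nothing is read from either count.

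Of 54 other genes around the pathway, 41 had values on at least 2 arrays, with a median of the gene means of -0.32. Below 0 on every array were 23 of the 41 and above 0 were 7, where 45.9% and 18.5% of all genes were. The limma test covered 11 of them and called 0, with 1 at an unadjusted p under 0.05. With genes on at least 2 arrays it called 2, MTD1 and GCV3, on the negative side, where it called 0.737% of all genes. That fit counts arrays as separate replicates, although 2 of these 3 arrays share a culture. MTD1 was measured on arrays 1 and 2 alone, which may be that pair. The lists were chosen with earlier results of these data known, so nothing is read from this count.

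The GMP branch, which leads from IMP to GMP, lay on the negative side. Of its 5 listed genes, 4 were matched to a row, and these 4 were below 0 on arrays 1 and 2, with a median of the gene means of -0.96. IMD2, IMD3 and IMD4 encode IMP dehydrogenase, the branch's first enzyme, and averaged -1.09 ± 0.04, -0.97 ± 0.45 and -0.95 ± 0.30 (SD, n = 2 arrays each). GUA1, the GMP synthase gene, averaged -0.83 ± 0.05 (SD, n = 2 arrays). In the limma fit over genes on at least 2 arrays none passed (adjusted p from 0.0695 to 0.126). The IMD genes are near-identical and may share signal, so they are not independent measurements.

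Genes that supply glycine and one-carbon units were spread more widely. Of 12 with values on at least 2 arrays, 7 were below 0 on every array and 1 was above, with a median of -0.35. MTD1, a cytosolic methylenetetrahydrofolate dehydrogenase, had -1.86 on array 1 and -2.89 on array 2 (mean -2.37 ± 0.73, SD, n = 2 arrays; limma adjusted p = 0.0132 when genes on at least 2 arrays entered). SHM2, the cytosolic serine hydroxymethyltransferase, averaged -1.87 ± 1.00 (SD, n = 2 arrays; limma adjusted p = 0.0513 in that fit). The mitochondrial form, SHM1, averaged -0.27 ± 0.07 (SD, n = 2 arrays), and was named after its value was seen. MTD1 and SHM2 had values on arrays 1 and 2 alone, which that fit counts as independent although they may share a culture. Of the glycine cleavage complex, GCV3 had -1.60, -0.94 and -1.002 on arrays 1, 2 and 4 (limma adjusted p = 0.285, and 0.0318 in the fit that called MTD1). GCV1 had -1.75 on array 1 and -5.48 on array 2, so its mean of -3.62 ± 2.64 (SD, n = 2 arrays) rests largely on array 2. SER1, of serine synthesis, averaged -0.43 ± 0.30 (SD, n = 3 arrays). MIS1, the mitochondrial one-carbon enzyme, lay on the positive side at 0.38 and 1.11 on arrays 1 and 2. ADE3, its cytosolic counterpart, averaged 0.02 ± 0.14 (SD, n = 2 arrays). MIS1 and ADE3 were likewise named after their values were seen.

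**Figure D4:**
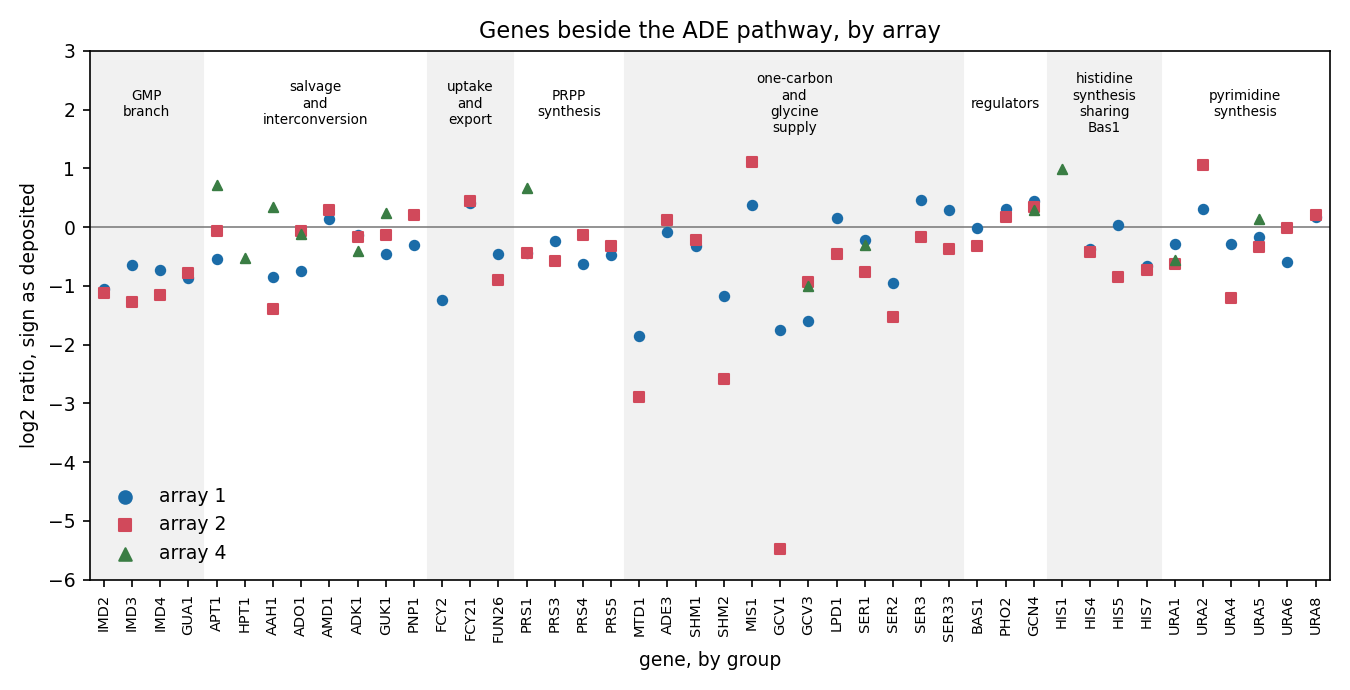
Log2 ratio (vertical axis, sign as deposited) of each gene around the ADE pathway with a value, grouped by role along the horizontal axis, with 1 point per array. The 4 GMP branch genes shown lie below 0 on arrays 1 and 2, with a median of the gene means of -0.96. That median is -0.12 for salvage genes and 0.24 for regulators, but the salvage gene AAH1 lies at -0.85 on array 1 and -1.40 on array 2.

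Salvage and interconversion genes, which recycle bases and nucleosides, lay nearer 0. Of 7 with values on at least 2 arrays, 2 were below 0 and 1 above 0 on every array, with a median of -0.12. AAH1, the adenine deaminase gene, had -0.85 and -1.40 on arrays 1 and 2 and 0.35 on array 4, so the arrays differed in sign. The adenosine kinase gene ADO1 averaged -0.32 ± 0.38, the adenylate kinase gene ADK1 -0.24 ± 0.15 and the guanylate kinase gene GUK1 -0.12 ± 0.34 (SD, n = 3 arrays each). None passed limma (adjusted p from 0.697 to 0.995 for these 4 and APT1). That fit called 0 of 585 genes, so not passing does not set these genes apart. Among the transporters, FCY2, the main purine and cytosine permease, had a value on array 1 alone, of -1.25. FCY21 averaged 0.43 ± 0.02 and the nucleoside transporter gene FUN26 -0.68 ± 0.31 (SD, n = 2 arrays each).

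Genes for phosphoribosyl pyrophosphate, the substrate of Ade4, had a median of -0.39 over 4 measured. PRS3, PRS4 and PRS5 averaged -0.41 ± 0.24, -0.38 ± 0.35 and -0.40 ± 0.12 (SD, n = 2 arrays each) and were below 0 on arrays 1 and 2. PRS1 had -0.45, -0.44 and 0.67 on arrays 1, 2 and 4, with array 4 on the other side. Of the activator genes themselves, BAS1 averaged -0.17 ± 0.21 and PHO2 0.24 ± 0.11 (SD, n = 2 arrays each). The medians of arrays 1 and 2 were -0.20 and -0.22, so BAS1 lay near the bulk of genes and PHO2 above it. GCN4, the general activator of amino acid synthesis, averaged 0.36 ± 0.08 (SD, n = 3 arrays; limma adjusted p = 0.642). Of these 3 regulators, 2 were above 0 on every array and 1 below, where 18.5% and 45.9% of all genes were.

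Histidine genes that share Bas1 had ratios nearer 0 than the lowest ADE genes, ADE17, ADE1 and ADE4. They overlapped other ADE genes: on array 1 HIS7 had -0.67, below ADE57 at -0.58. HIS7 averaged -0.69 ± 0.04, HIS4 -0.40 ± 0.03 and HIS5 -0.41 ± 0.62 (SD, n = 2 arrays each), and HIS1 had a value on array 4 alone, of 0.99. The pyrimidine genes, listed as the other nucleotide pathway, had a median of -0.21 over 6 genes, with 3 below 0 and 2 above 0 on every array. URA4 averaged -0.75 ± 0.65 and URA2 0.68 ± 0.53 (SD, n = 2 arrays each). URA1 averaged -0.49 ± 0.18 and URA5 -0.12 ± 0.24 (SD, n = 3 arrays each). Neither of the last pair passed limma (adjusted p = 0.531 and 0.993), in the fit that called 0 of 585 genes.

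Among the other genes on all arrays, those nearest by Euclidean distance to the median profile of ADE12 and ADE13 were MYG1, ATO3, RBG2, FLO9 and EMG1. Their distances over 3 arrays were 0.46, 0.50, 0.59, 0.66 and 0.74, while each ADE gene lay 0.22 from that profile, which they themselves define. MYG1, the nearest, had -0.94, -1.35 and -1.17 on arrays 1, 2 and 4. The ammonium-linked transporter gene ATO3 had -0.89, -1.29 and -1.36. With 3 arrays, such likeness is a description of these hybridisations.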

How the data were processed

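The values are log2 ratios of both dyes of an array, deposited by the authors in 1 table. Base 2 was assumed. The scanner, normalization, spot filter, centring and ratio direction are not stated in the labels or the file. Array 1 has swapped dyes, and its column was left as deposited because it did not correlate below 0 with the others. Of 6209 rows, 5654 matched the RefSeq gene table (R64) by locus tag and 57 by synonym, and rows of one gene were averaged. Only the number of arrays can be given as a limit on precision.

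Each gene's ratio was tested against 0 with limma 3.58.1 (R 4.3.3, lmFit, eBayes), with array 1 averaged with array 2 and then with array 4. The larger p was adjusted by the Benjamini-Hochberg method over 585 genes with a threshold of 0.05. Alternatives were centring, scaling, robust moderation, arrays as separate replicates, a dye term, genes on at least 2 arrays and leaving out each array.

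The members and lists were chosen with earlier results of these data known. The text names all members, up to 4 genes of each list (most arrays, then largest ratio) and the 5 nearest profiles. IMD1 was not matched to a row by symbol or synonym, and is not analysed here under that name.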

Additional observations from a re-analysis of the deposited data

How the results depend on the processing

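The count of 8 ADE genes below 0 on every array measured was 8 after centring, 8 to 9 with 1 array left out, and 1 (ADE16) with the sign of array 1 turned, an alternative chosen after seeing the data. The median of the ADE gene means was -1.13 after scaling and -1.54 to -1.04 with 1 array left out, and -0.48 with the sign of array 1 turned. The count of 3 ADE genes at least 2-fold below 0 on arrays 1 and 2 was 6 at 1.5-fold, an alternative chosen after seeing the data. ADE16 changed side after centring (0.11) and without array 2 (0.38), with -0.58 to 0.38 when any 1 array was left out, and ADE8 with the sign of array 1 turned (0.21). The other 69 of 72 alternatives for single ADE genes kept their sign, 5 of them moving by more than the SD, all with array 1 turned. For genes measured on arrays 1 and 2 alone, leaving out array 4 or averaging array 1 with another array returned the same mean. Leaving out 1 of 2 arrays cannot move a mean by more than the SD. The tally was therefore partly fixed in advance and is no measure of stability. A mean of values on one side cannot change side by leaving out an array. The count of genes past the limma threshold, 0 of 585, was 2 with 3 separate replicates, 2 with a dye term, 3 after scaling, 48 with genes on at least 2 arrays, and 0 to 209 with 1 array left out: 17 without array 1, 0 without array 2 and 209 without array 4. Of the other genes around the pathway, 0 passed, and 2 did with genes on at least 2 arrays. With 1 array left out 0 to 10 passed, the 10 without array 4, where both remaining arrays may come from one culture; the cause of these changes was not tested. Each ratio already compares both parts of a culture on one array, and with a single group there was no further replicate block to fit. The planned comparison of promoter windows was not run, since promoter sequences were not used here. Brightness over background is unknown, so low spots cannot be told from others.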
